A study of Mus musculus with 36 samples.

Results

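The regions described here are stretches of open chromatin that were more accessible at every sampled day of direct cardiac reprogramming than in control fibroblasts. Of 184025 regions with at least 90 summed counts, 4774 (2.59%) were chosen, out of 1393120 regions read in all. Accessibility was expressed as log2(CPM + 0.5), where CPM is the count scaled to a common library size over the 184025 regions, and averaged over the 3 libraries of a group. Members were selected on these measured levels: a region was a member when its level exceeded the fibroblast level by at least 1.5, a 2.83-fold difference, at each of days 2, 3, 7, 14 and 21. The difference from fibroblasts is called the excess below, and since it chose the members it is given as a description, and calls against fibroblasts support nothing here.

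All cells came from neonatal hearts of Cd-1 mice of genotype alpha-MHC-GFP, in which a cardiac myosin promoter drives a green fluorescent reporter. Explant-grown cells that were Thy1+ and lacked GFP were infected with retroviruses. The control fibroblasts received a dsRed virus without inhibitors, and dsRed+ cells were collected at day 7. The reprogrammed cells received Gata4, Mef2c and Tbx5 (together GMT) with sb431542, which inhibits TGF-beta signalling, and xav939, which inhibits Wnt signalling, and GFP+ cells were collected at day 2, 3, 7, 14 or 21. Each of these 6 groups had 3 biological replicates per the labels, whether from separate litters or cultures is not stated, and 18 of the 36 labelled samples were analysed here. The comparison with fibroblasts therefore joins factors, inhibitors, the sort and, except at day 7, time, and these cannot be told apart. In bulk libraries a larger share of cells with an open region and more accessibility per cell cannot be told apart either.

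ATAC-seq cuts DNA with a transposase where nucleosomes leave it exposed, so the count over a region reports how open it is. GATA4, a zinc-finger factor, can bind its sites on nucleosomes, and together with MEF2C and the T-box factor TBX5 it regulates contractile genes in the heart. Enhancers and promoters that open when such factors bind are commonly marked by peaks of this kind.

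Gene names below rest on intervals of mm9, the build of the coordinates, recalled and rounded to 10 kb, because no mm9 annotation was used. The order of the 37 loci was the same as in the RefSeq table of another build on 9 of 9 chromosomes. The regions covered chromosomes 1 and 10 to 17, and on chromosome 17 they ended at 79.1 Mb. Library totals ran from 2.29 to 23.2 M counts (M, mega), and 1.46 to 14.1 M of these fell in the 184025 regions. A single region on chromosome 1, left out with the 4 next highest, took 4.52 to 49.4% of a library's counts. In the fibroblasts it took 49.4, 49.3 and 14.5%. The first libraries of days 2 and 3 stood apart from the others of their day, as described with the levels below.

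Of the 6 members with the highest GMT mean, 2 lay near the start of genes that encode contractile proteins, Myh6 and Tnnt2, by the rounded intervals. Distance to gene starts was not measured for the other members. The promoter sequences of these 2 genes are shown. The sequences are the 250 bases upstream of the gene start in RefSeq, build GRCm38.p6, and are not cut from the mm9 regions. Myh6 encodes the alpha cardiac myosin heavy chain, lies on the minus strand of chromosome 14 (chr14:54966608-54966857), and its promoter is also the one in the reporter. Tnnt2 encodes cardiac troponin T and lies on the plus strand of chromosome 1 (chr1:135836084-135836333). Capitals mark GATAA (a core that GATA factors bind), GGAATG (a core that TEAD factors bind) and CANNTG (the E-box), each searched on both strands.
Myh6: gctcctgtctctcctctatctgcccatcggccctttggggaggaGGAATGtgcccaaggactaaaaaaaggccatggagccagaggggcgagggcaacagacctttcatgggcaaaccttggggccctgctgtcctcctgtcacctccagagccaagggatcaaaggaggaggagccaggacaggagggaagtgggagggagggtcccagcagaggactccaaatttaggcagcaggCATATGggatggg
Tnnt2: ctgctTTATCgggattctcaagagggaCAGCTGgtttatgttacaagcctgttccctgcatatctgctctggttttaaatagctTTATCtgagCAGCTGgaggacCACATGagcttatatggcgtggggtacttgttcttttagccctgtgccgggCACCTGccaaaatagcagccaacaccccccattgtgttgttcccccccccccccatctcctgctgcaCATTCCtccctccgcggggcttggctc

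The Tnnt2 window held 2 GATAA, 1 GGAATG and 4 CANNTG matches, and the Myh6 window held 0, 1 and 1. Among 32851 RefSeq promoter windows of the same length, 22.6% held GATAA, 12.6% GGAATG and 66.2% CANNTG. Neither window held AGGTGTNA, a T-box sequence (2.68% of windows), TGANTCA, an AP-1 sequence (6.75%), or the MEF2 motif (2.92%). These matches describe letters in these windows only. The sequences of the other members were not searched, since no mm9 genome was used.

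The member near the start of Myh6 (chr14:55584482-55587987) had 25.1, 27.1 and 19.1 CPM in the fibroblasts. It had 163, 205 and 257 CPM at day 2, 178, 350 and 324 at day 3, 452, 392 and 401 at day 7, 380, 399 and 227 at day 14, and 393, 298 and 442 at day 21. All 15 GMT libraries were above all 3 fibroblast libraries. Day 21 was 0.98 ± 0.36 (SE) log2 units above day 2, which did not pass edgeR's quasi-likelihood test after Benjamini-Hochberg adjustment (adjusted p = 0.206). Reads from the reporter transgene and from the gene itself cannot be told apart here, and the GMT cells were sorted on that reporter.

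The member near the start of Tnnt2 (chr1:137730518-137733557) had 26.3, 23.6 and 13 CPM in the fibroblasts. It had 93.4, 104 and 76.7 CPM at day 2, 70.4, 84.3 and 88.5 at day 3, 104, 125 and 99.0 at day 7, 114, 88.6 and 79.2 at day 14, and 106, 103 and 128 at day 21. It was thus open in the 3 libraries of day 2 at levels that overlapped those of day 21. The difference between those days was 0.43 ± 0.32 (SE) log2 units, with an adjusted p of 0.666 in the edgeR fit.

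**Figure D1:**
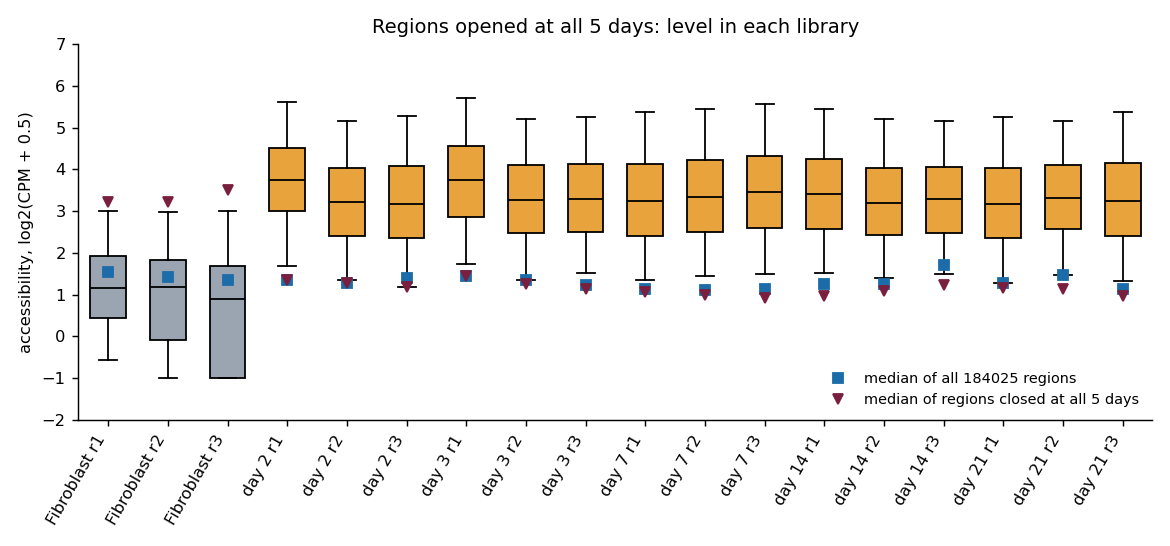
Accessibility of the 4774 members in each of 18 libraries, as log2(CPM + 0.5); boxes span the quartiles with the median as a line, whiskers the 5th to 95th percentile, squares mark the median of all 184025 regions and triangles that of the 2498 regions with the mirror-image pattern. The members' medians lie between 0.90 and 1.17 in fibroblasts and between 3.16 and 3.74 in GMT libraries.

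The members held a larger share of the accessible signal in every GMT library than in any fibroblast library. The rule favours this through the group means, but it sets no bound on single libraries. They held 1.22, 1.15 and 0.975% of counts in the fibroblasts. At day 2 they held 8.34, 6.03 and 6.23%, and at day 21 they held 6.05, 6.24 and 6.53%. The means were 1.12% ± 0.127 (SD, n = 3) in fibroblasts and 6.87% ± 1.28, 7.05% ± 1.27, 6.94% ± 0.420, 6.38% ± 0.598 and 6.27% ± 0.242 at days 2, 3, 7, 14 and 21. The level of a member had a median of 1.52 CPM in fibroblasts, against 2.20 CPM over all 184025 regions. Over the GMT groups its median was 9.84 CPM (quartiles 5.60 and 17.7), against 1.91 CPM over all regions.

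Of the 6 members with the highest GMT mean, 3 are those near Myh6 and Tnnt2 and a Gata4 region described below. The other 3 lay outside the 37 loci given intervals, so no gene was assigned to them. At chr17:12950660-12953796 the mean was 15.3 CPM in fibroblasts, 129 at day 2 and 107 at day 21. At chr11:54692638-54695204 it was 20.4, 112 and 118 CPM, and at chr16:43577206-43580799 it was 18.6, 98.4 and 93.1 CPM. At all 3 every GMT library was above every fibroblast library.

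The first libraries of days 2 and 3 were the most open over the members. Their median level exceeded that of the fibroblasts by 2.68 and 2.69, against 2.13 to 2.40 in the other 13 GMT libraries. These were also among the shallowest libraries, with 2.29 and 2.95 M counts. Without both of them the rule chose 4360 regions, of which 4196 were among the 4774.

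Single libraries separated the groups at most members. In 4555 of 4774 (95.4%) all 15 GMT libraries lay above all 3 fibroblast libraries, where 6.43% of all 184025 regions did so, and 219 members overlapped. The rule chose members on the means of these same libraries, so this separation is a description only. Fibroblast counts were low, with a median of 16 over the 3 libraries together. At 1420 members they summed to under 10, and at 50 members they were 0 in all 3. In the edgeR fit 4708 members were called above fibroblasts at day 2, beside 10.2% of all regions, and 4743 at day 21, beside 11.3%. On both days 0 members were called below fibroblasts, beside 5.72 and 7.39% of all regions, and these counts follow from the rule.

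The excess was of similar size at all 5 days. Its median over members was 2.29, 2.35, 2.26, 2.21 and 2.18 log2 units at days 2, 3, 7, 14 and 21, while over all regions the medians lay between -0.18 and 0.01. The smallest excess a member had at any day reached 2 at 2031 members (42.5%), 3 at 282 and 4 at 28. Members just inside the threshold were chr12:40662328-40663697 and chr12:113936367-113936670, with excesses of 1.5 to 1.66 and 1.5 to 2.60. Regions just outside were chr16:9005721-9006624 and chr17:23981790-23982133, also at 1.5 on their lowest day to 2 decimals.

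Many more regions passed the threshold on some days only. At least 1 day was passed by 17826 regions, of which the members made up 26.8%. Exactly 1, 2, 3 and 4 days were passed by 5324, 3517, 2261 and 1950 regions. Members made up 42.1% of the 11333 regions past the threshold at day 2 and 52.4% of the 9118 at day 21. All 5 comparisons use the same 3 fibroblast libraries.

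The members with the largest minimum excess were close to shut in fibroblasts, which a ranking on the excess favours. At chr12:8390481-8391254, the member with the largest minimum excess, the fibroblasts had 0.173, 0.437 and 0 CPM. The GMT libraries had 33.2, 12.6 and 15 CPM at day 2, 66.0, 15.5 and 20.4 at day 3, 32.4, 27.7 and 30.7 at day 7, 28.9, 27.5 and 24.1 at day 14, and 27.4, 13.7 and 25.5 at day 21. The first libraries of days 2 and 3 were the high values there. No excess at this member fell below 4.80.

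A steadier member was chr12:16656232-16657462, with 0.693, 0.437 and 2.05 CPM in fibroblasts. Its means were 40.0, 39.9, 38.4, 36.2 and 39.0 CPM at days 2, 3, 7, 14 and 21. Day 21 over day 2 was 0.13 ± 0.29 (SE) log2 units (adjusted p = 0.925, edgeR). The other members chosen for their minimum excess were chr11:119995890-119997085, chr11:86729727-86731038, chr15:99713938-99715325 and chr1:156971005-156972077, whose minimum excesses were 4.68, 4.63, 4.63 and 4.58.

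Among the 50 members without a count in any fibroblast library, the highest GMT levels were at chr11:57780029-57780707. It had 10.8, 4.81 and 8.92 CPM at day 2 and 4.79, 6.27 and 2.68 at day 21. Against a floor of 3 counts over the fibroblast group it was at least 26.0-fold higher at day 2 and at least 14.5-fold higher at day 21. The corresponding bounds were 21.7 and 15.4 at chr1:163043787-163045464, and 16.3 and 10.5 at chr11:86476525-86477462. These floors cover counting error only.

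Regions near contractile genes were often members. Within 50 kb of the 11 sarcomere genes, 53 of 450 regions (11.8%) were members, beside 2.59% of all regions, and all 11 loci held at least 2. The loci overlap where genes are neighbours, as Myh6 and Myh7 share 4 members and Tnnt2 and Tnni1 (slow skeletal troponin I) share 10, and shared members were counted once in the 53. Ldb3, which encodes a Z-disc protein, had 12 members of 82 regions. Des (the muscle intermediate filament desmin) had 6 of 35, Tcap (the titin cap) 6 of 36 and Actn2 (sarcomeric alpha-actinin) 6 of 54. Myl4 and Myl7, atrial myosin light chains, had 4 of 46 and 2 of 40, and Tnnc1 (cardiac troponin C) had 3 of 42.

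The calcium-handling list had 31 members of 422 regions (7.35%), and 30 of them were at Ryr2, the calcium release channel of the sarcoplasmic reticulum. Pln (phospholamban) had 1 of 42, and Atp2a3 and Cacna1s had 0. The list held only these 4 genes, so other genes of calcium handling were not counted. The cardiac regulators had 20 of 232 (8.62%). Nkx2-5, a homeodomain factor of early heart development, had 5 of 23. Its members summed to 7.40 CPM ± 0.820 (SD, n = 3) in fibroblasts, 56.2 ± 5.18 at day 2 and 82.0 ± 8.59 at day 21. Myocd (myocardin, a coactivator of SRF) had 6 of 51 and Hand1 1 of 31, and the remainder were at Gata4 and Mef2c.

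The 10 extracellular matrix genes had 6 members of 368 regions (1.63%), where 2.59% of all regions were members. At the same loci 66 regions (17.9%) were at least 1.5 below fibroblasts on all 5 days, where 1.36% of all regions were. Of those 66, 33 were at Fn1 (fibronectin), where 1 region was a member. The 4 fibroblast regulators (Tcf21, Prrx1, Twist1 and Meox1) had 0 members of 94 regions. Smooth muscle genes had 7 of 121 (5.79%), namely 5 at Myh11 and 2 at Mylk, and the leukocyte gene Ptprc had 0 of 29. At the 2.59% of all regions, 94 or 29 regions would hold few members, so these counts of 0 set neither list apart. The part of smooth muscle cells in these values was not tested. The gene lists were chosen with earlier results of these data known, so these shares are descriptions.

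**Figure D2:**
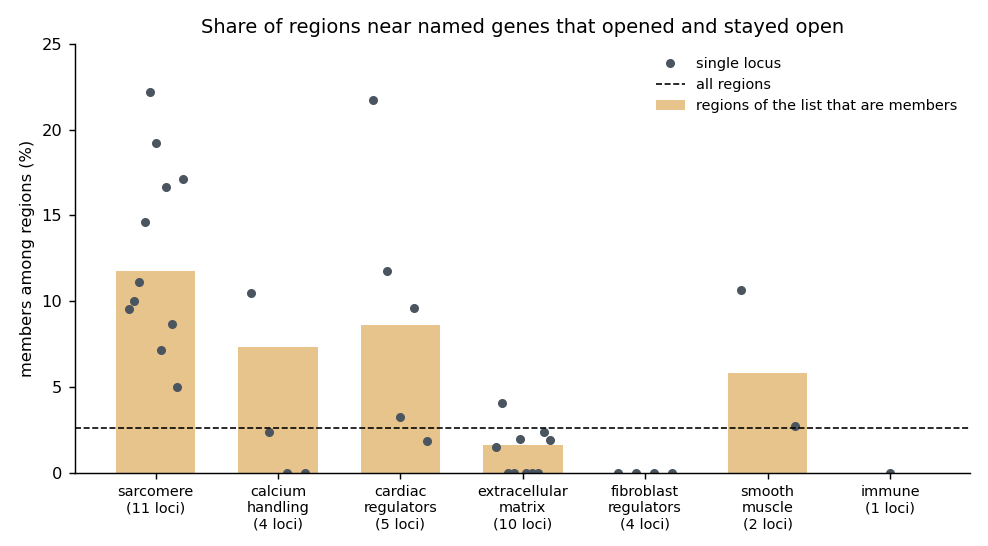
Share of regions near named genes that were members, in percent; bars give each list as a whole, points give single loci, and the dashed line marks the 2.59% of all regions. The sarcomere list stands at 11.8% and the fibroblast regulators at 0.

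Members were packed at some of these genes. Among windows of 100000 bases, the one that held most members was at Ldb3, with 11 members of 56 regions. Together they had 71.0, 55.1 and 52.6 CPM in fibroblasts, 294, 475 and 488 at day 2, and 239, 400 and 400 at day 21. The other regions of the window had 345 CPM ± 5.82 (SD, n = 3) in fibroblasts, 534 ± 163 at day 2 and 567 ± 100 at day 21. The next window held Tnnt2, with 10 members of 41 regions. Its members had 41.7, 45.5 and 26.0 CPM in fibroblasts, 232, 330 and 235 at day 2, and 209, 344 and 340 at day 21. In both windows the first libraries of days 2, 3 and 21 were the lowest of their day, although those of days 2 and 3 were the highest over all members.

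Of the further windows with many members, those on chromosomes 11 and 15 lay outside the 37 loci given intervals. No gene was therefore assigned to them, and other genes were not looked up. On chromosome 11 a window had 9 members between 86729727 and 86799580, with 46.0 CPM ± 10.4 (SD, n = 3) in fibroblasts, 244 ± 105 at day 2 and 200 ± 32.3 at day 21. On chromosome 15 a window had 9 members between 25833824 and 25899431, with 44.3 CPM ± 5.73 in fibroblasts, 274 ± 90.7 at day 2 and 237 ± 51.2 at day 21. The fifth lay in Ryr2 on chromosome 13 and had 8 members, with 10.5 CPM ± 4.55 in fibroblasts, 65 ± 11 at day 2 and 53.7 ± 9.77 at day 21. The widest member of all was also in Ryr2 (chr13:11861901-11868004, 6103 bases) and had excesses between 1.51 and 1.79. The next widest (chr11:86744669-86749944, 5275 bases) lay in the chromosome 11 window.

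Between neighbouring days hardly any member was called as changed. From day 2 to day 3, from day 7 to 14 and from day 14 to 21 the edgeR fit called 0 of the 4774 members and 0% of all regions. At an unadjusted p under 0.05 in that fit there were 128, 521 and 115 members, beside 6630, 12407 and 6152 of all 184025 regions. DESeq2 also called 0 members in each. From day 3 to day 7, 0 members rose, beside 0.00109% of all regions, and 2 fell, beside 0.00543% (0.00652% in either direction). Both were at delivered factors, Gata4 and Mef2c. At an unadjusted p under 0.05 in the edgeR fit there were 509 members, beside 11175 of all regions. The median change of members in that fit was 0.19 log2 units from day 3 to 7 (all regions 0.002). From day 7 to 14 it was -0.23 (all regions 0.01). With library totals alone these medians were -0.02 and -0.05 (all regions -0.18 and 0.18). In simulated data, 50 changes of each size between days 2 and 21 were set at regions drawn from all 184025. Counts were drawn from a common mean per region, the real library sizes and the fitted trend of spread, with no library standing apart. Changes of 2-fold were recovered in 4% of cases, those of 4-fold in 68% and those of 8-fold in 100%. In that setting most 2-fold changes at such regions were thus missed, and 4 unchanged regions were called. Median GMT levels were 1.91 CPM over all regions and 9.84 CPM over members, so these shares do not give the recovery at members. Neighbouring days were not simulated. The smallest called changes of members from day 2 to 21 were 1.11 and -1.03 log2 units.

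Over the whole time course, from day 2 to day 21, 51 members rose (1.07%, beside 0.385% of all regions) and 80 fell (1.68%, beside 0.593%) in the edgeR fit. The rule limits how far a member can fall, because it must stay 1.5 above fibroblasts at day 21. The median excess of the 51 was 1.96, 2.49, 2.96, 3.17 and 3.19 at days 2, 3, 7, 14 and 21, and that of the 80 was 3.49, 3.17, 2.46, 2.14 and 1.95. Members are brighter than most regions, so the shares were also taken at like levels, a comparison added after seeing the data. Among regions with GMT means between 5.60 and 17.7 CPM, 1.38% of members and 1.38% of other regions rose, and 2.18% and 2.04% fell.

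Those counts depended on single libraries. Without replicate 1 of day 21, 21 members rose and 16 fell. Without replicate 3 of day 21 the counts were 10 and 34, without replicate 2 of day 2 they were 18 and 53, and without replicate 3 of day 2 they were 10 and 34. Leaving out replicate 1 of day 3, which enters only through the shared spread, gave 86 that rose. Without the first libraries of both day 2 and day 3, 126 rose and 100 fell. No member called in the full fit was called in the opposite direction in any of these.

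With the mean of days 14 and 21 set against the mean of days 2 and 3, 198 members rose (4.15%, beside 1.79% of all regions) and 289 fell (6.05%, beside 2.68%). Among regions with GMT means between 5.60 and 17.7 CPM, 4.99% of members and 4.04% of other regions rose, and 7.67% and 8.29% fell. All 51 that rose between days 2 and 21 and 78 of the 80 that fell were among them. Without replicate 1 of day 14, 77 rose, and without replicate 1 of day 21, 186 fell. The number that rose was 129, 120, 124 and 110 without replicates 2 and 3 of day 2, replicate 3 of day 3 and replicate 3 of day 21, and 316 without the first libraries of days 2 and 3.

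**Figure D3:**
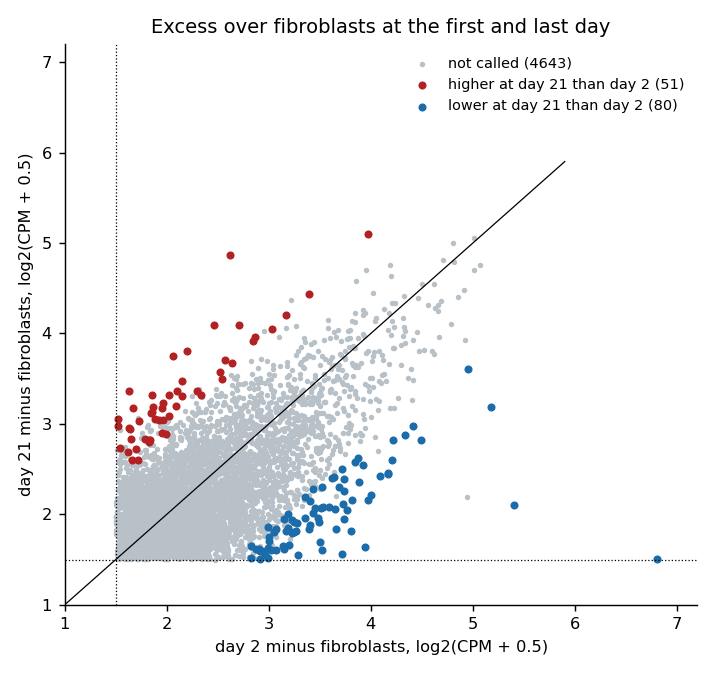
Excess of each member over fibroblasts at day 2 (x axis) and day 21 (y axis), in log2(CPM + 0.5) units; the solid line marks equal excess and the dotted lines the threshold of 1.5. The 51 members that rose lie above the line and the 80 that fell below it, and the other 4643 lie around it.

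The largest called rise was at chr17:29559699-29560736. It had 0.520, 0 and 0 CPM in fibroblasts, 5.41, 3.85 and 1.78 at day 2, 4.47, 6.34 and 6.33 at day 3, 9.29, 7.17 and 15.2 at day 7, 13.7, 18 and 13 at day 14, and 18.4, 19.4 and 16.2 at day 21. All libraries of day 21 lay above all of day 2. The change was 2.44 ± 0.35 (SE) log2 units (adjusted p = 5.75e-06, edgeR), and it passed in 23 of 23 settings tried.

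The member chr13:46521551-46523686 had 12.2, 8.93 and 7.85 CPM at day 2 and 23.4, 32.5 and 35.7 CPM at day 21. It rose by 1.83 ± 0.31 (SE) log2 units (adjusted p = 0.000246, edgeR), and fibroblasts had 1.73, 1.31 and 2.05 CPM. The other large rises were 2.00 at chr1:167040588-167041690 (adjusted p = 0.00506) and 1.94 at chr16:76519478-76521134 (adjusted p = 0.000865). Neither passed without replicate 2 of day 2, where adjusted p was 0.170 and 0.105. Of the 37 loci, only Actn2 held a member that rose, and it held 1.

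**Figure D4:**
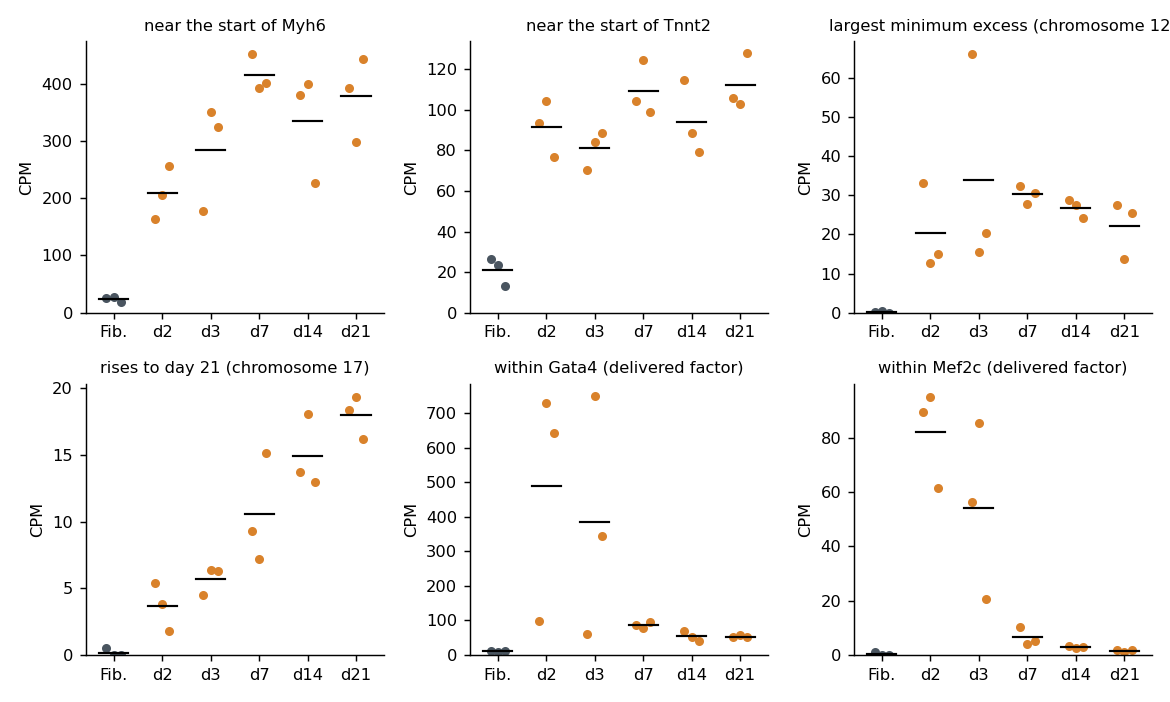
Accessibility (CPM, linear axes from 0) of 6 members in the 3 libraries of each group; points are libraries and bars are means. The members near Myh6 and Tnnt2 are open from day 2, the chromosome 17 member rises to day 21, and those in Gata4 and Mef2c are highest at days 2 and 3.

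The largest falls were in genes whose coding sequence was delivered by virus. In Mef2c, chr13:83795713-83796137 had 1.04, 0 and 0 CPM in fibroblasts, 89.3, 95.1 and 61.4 at day 2, 56.5, 85.2 and 20.4 at day 3, 10.3, 4.04 and 5.06 at day 7, 3.23, 2.69 and 2.78 at day 14, and 1.72, 1.14 and 1.91 at day 21. It fell by 5.42 ± 0.44 (SE) log2 units from day 2 to day 21 (adjusted p = 1.49e-12, edgeR). From day 3 to day 7 it fell by 2.79 ± 0.37 (SE). In Gata4, chr14:63819108-63820631 had 2.43, 5.25 and 6.15 CPM in fibroblasts, 157, 303 and 176 at day 2, and 23.4, 18.5 and 19.2 at day 21. It fell by 3.27 ± 0.37 (SE) log2 units over that time (adjusted p = 6.34e-09), and both falls passed in 23 of 23 settings.

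Of all 12 regions called between days 3 and 7, 8 were in these 2 genes, and all 8 fell. Reads of the delivered coding sequences and reads of the chromatin cannot be told apart in these regions. A further Gata4 member, chr14:63858329-63860065, had 98.8, 731 and 642 CPM at day 2, 60.4, 749 and 345 at day 3, and 50.9, 56.4 and 50.8 at day 21. The first libraries of days 2 and 3 were far below the others here. Its difference between days 21 and 2 was -3.17 ± 0.80 (SE) log2 units with an adjusted p of 0.0921, and without the first library of day 2 it passed (adjusted p = 0.00074). Of the 80 members that fell, 2 were in these genes.

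Falls were also seen away from the delivered genes. In Ldb3, chr14:35332574-35333847 had 8.80, 14.3 and 12.1 CPM at day 2 and 3.06, 2.85 and 1.84 at day 21, after 0.866, 0.437 and 0 in fibroblasts. It fell by 2.21 ± 0.37 (SE) log2 units (adjusted p = 0.000186, edgeR). Next to it, the 5072-base member chr14:35334859-35339931 had 112, 105 and 131 CPM at day 2 and 32.7, 37.3 and 55.5 at day 21. It fell by 1.32 ± 0.34 (SE) with an adjusted p of 0.0297, which became 0.0738, 0.183, 0.232 and 0.154 without replicates 2 and 3 of day 2 and replicates 1 and 2 of day 21. The other 9 members of that window were not called, and that at chr14:35386142-35388249 had means of 46.4 CPM at day 2 and 77.1 at day 21.

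The remaining named falls were at chr11:119620390-119621691 and chr1:88476595-88477346. The former had 23.0, 8.38 and 7.13 CPM at day 2 and 1.72, 2.28 and 2.45 at day 21, and it fell by 2.21 ± 0.38 (SE) log2 units (adjusted p = 0.000337, edgeR). The latter had 12.2, 4.67 and 6.42 CPM at day 2, 0.191, 2.57 and 1.30 at day 21 and 0 in all fibroblast libraries. It fell by 2.29 ± 0.46 (SE), adjusted p = 0.00296, and adjusted p was 0.0606 without replicate 1 of day 21.

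The difference between a member's highest and lowest day had a median of 0.57 log2 units. It was under 1 at 88.4% of members and at least 2 at 7. The rule used these same values and bounds the lowest day, so they describe the members only. Days 2, 3, 7, 14 and 21 were the highest day at 1222, 1165, 955, 770 and 662 members. The median difference between days 21 and 2 was -0.09 on the scale of the rule (all regions -0.01) and 0.04 with TMM factors (all regions 0.03), so its sign depended on the scaling.

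The members' size and chromosome were close to those of other regions. Their median width was 1562.5 bases (quartiles 1152 and 2019.75), against 1346 over all regions, and 4.52% were 3 kb or wider, against 4.72%. The share of regions that were members ran from 2.33% on chromosome 1 to 3.18% on chromosome 11.

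The spacing of members is given as a description. The nearest other member was at a median of 33.6 kb, and it was within 10 kb for 25.0% of members. In the mirror-image set, which has fewer regions on the same chromosomes, these values were 87.8 kb and 13.5%. A set with fewer regions lies further apart by its size alone, and the spacing of all regions was not measured. These values therefore do not show that members lay closer together than other regions. Of the windows of 100000 bases with any region, 28.5% held a member, and 68 windows with 5 or more held 389. The longest runs of adjacent regions that were all members had 5 regions, on chromosome 12 (chr12:83450016-83459024) and in Tnnt2 (chr1:137734435-137741701).

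Regions that were not members themselves were called above fibroblasts more often when a member was near. Of 2935 such regions within 1 kb of a member, 20.5% were higher at day 2 and 25.3% at day 21 in the edgeR fit. Of the 87346 at 100 kb or more, 4.14% and 4.88% were. The share lower than fibroblasts at day 2 ran the other way, from 2.86% within 1 kb to 6.82% at 100 kb or more. Around the mirror-image set the pattern was reversed, with 12.0% lower and 5.77% higher at day 2 within 1 kb and 3.66% lower and 10.4% higher at 100 kb or more. Adjacent regions are not independent, and all these comparisons share the fibroblast libraries, so no test is given.

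**Figure D5:**
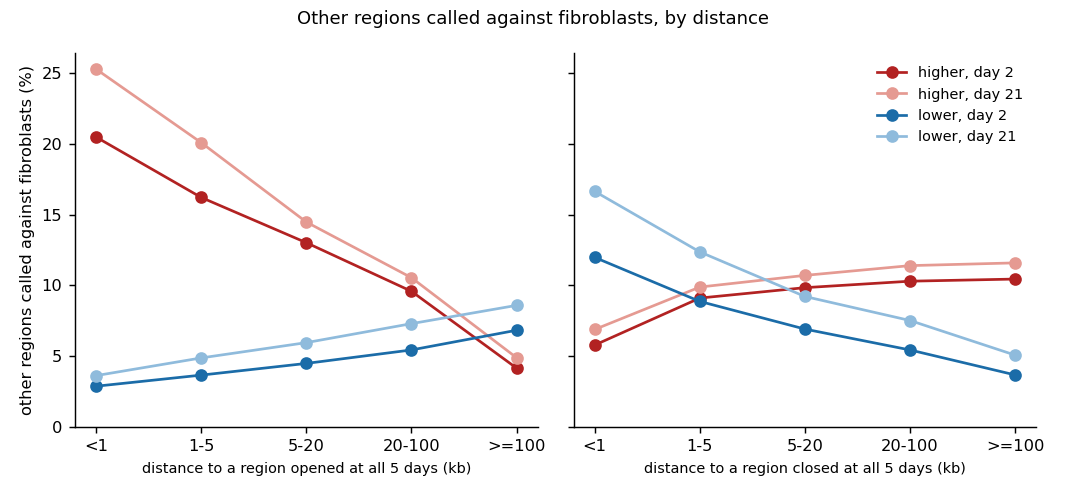
Share of other regions called above (red) or below (blue) fibroblasts at day 2 (dark) and day 21 (light), in percent, by distance in kb to the nearest member (left) or to the nearest region of the mirror-image set (right). The share higher declines with distance from members, from 20.5 to 4.14% at day 2, and the share lower declines with distance from the mirror-image set, from 12.0 to 3.66%.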

How the data were processed

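Read counts per region were deposited by the authors as raw whole numbers in 1 table of 18 columns. Bowtie2, Picard, MACS2, edgeR and build mm9 are named per the submitters' processing notes; how they were set, their versions and the way regions were defined are details not given in the sources used here. One incomplete line at the end of the table was dropped. Regions with a summed count of at least 90, minus the 5 highest, were kept, and CPM was taken on their column sums. edgeR 4.0.16 in R 4.3.3 fitted a mean per group to all 18 libraries (quasi-likelihood, robust, TMM factors, 12 residual degrees of freedom), with Benjamini-Hochberg adjustment over 184025 regions and a threshold of 0.05. DESeq2 1.42.0 served as an alternative, and the fit was tested on simulated data. The common coefficient of variation between replicates was 23.9%. Depth per library is given as a range with the results.

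The members and the gene lists were chosen with earlier results of these data known. Named members were those with the largest minimum excess (6), the highest GMT mean (6), the largest called rises and falls (4 each), the nearest to the threshold (2 on each side), the 5 fullest windows, the 2 widest, the 4 highest without fibroblast counts, and those in Gata4 and Mef2c. Replicates 1 and 2 of the fibroblasts were closest (chi-square per degree of freedom 1.30) and differed by more than sampling noise, so all 18 libraries were counted. The regions' own sequences were not searched and endothelial loci were not used here.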

Additional observations from a re-analysis of the deposited data

Results flagged for a closer look

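The excess over fibroblasts differed between days 2 and 21 by the test of the difference itself at 51 members, where it was larger at day 21, and at 80 members, where it was smaller. Over all regions 0.385% rose and 0.593% fell, and at like levels (GMT means between 5.60 and 17.7 CPM) 1.38% of members and 1.38% of other regions rose, and 2.18% and 2.04% fell. Leaving out 1 library at a time, 10 to 86 members rose and 16 to 109 fell.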

How the results depend on the processing

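The number of members, 4774, was 3123 with a pseudocount of 1 CPM, 11146 and 2031 with thresholds of 1 and 2, 7468 with the 5 highest regions kept, 11826 with no overlap between libraries in place of the threshold, and 12608 with fibroblast replicate 3 alone as control, a choice made after seeing the data. Leaving out 1 library at a time gave 4389 to 6265. Which regions were members depended most on the fibroblast libraries. Without fibroblast replicate 1, 2 or 3, the rule chose 6265, 5443 and 4404 regions. Of the 4774, 4468, 4180 and 3622 were among them. Without any 1 GMT library at least 4292 of the 4774 remained.

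Fitted with all regions of at least 10 summed counts, where many more regions are tested, 2 members rose and 3 fell from day 2 to 21 (89 regions in all), 11 rose and 32 fell late over early (751 in all), and 1 fell from day 3 to 7 (5 in all). With library totals alone 123 members fell from day 2 to 21. Without the first libraries of days 2 and 3, also chosen after seeing the data, 126 members rose from day 2 to 21 and 316 late over early, 1 rose from day 3 to 7, 2 fell from day 7 to 14 (21 regions in all), and 1 region was called from day 2 to 3.

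Leaving out 1 library at a time, the ranges were 10 to 86 members that rose and 16 to 109 that fell from day 2 to 21 (585 to 2727 regions in all), 77 to 239 and 186 to 306 late over early (4698 to 8467), 1 to 2 that fell from day 3 to 7 (6 to 16), and 0 to 10 regions from day 7 to 14. With 1 library left out of a group, the other 2 were assumed to vary like those of the other groups. No member called in the full fit from day 2 to 21 or late over early was called the other way. From day 2 to 21 more members rose than fell without replicate 1 of day 21 (21 and 16). The same held without the first libraries of days 2 and 3 (126 and 100). In the other fits without 1 library more fell. The members' median change was 0.04 log2 units in the full fit. It was -0.01 without replicate 2 of day 2, -0.05 without replicate 3 of day 21 and positive without any other library.

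Over all days the replicate numbers did not pair the samples. The 30 pairs of same-numbered libraries had correlations of deviations from -0.127 to 0.282, with 2 over 0.1. Of 15 libraries, 3 correlated best with their own number. Between days 2 and 3, replicates 1, 2 and 3 correlated with their own number at 0.282, 0.189 and 0.091. Pairs of different number ran from -0.261 to 0.198 there. The main fit counted all libraries as independent, also those of days 2 and 3 that are averaged in the late over early contrast. With the replicate block 51 members rose and 83 fell from day 2 to 21 and 179 rose and 287 fell late over early. That block is common to all days, so it does not model a likeness between days 2 and 3 alone. In the simulation 4% of 2-fold and 68% of 4-fold changes between days 2 and 21 were recovered, at regions drawn from all 184025. Recovery at members was not measured, and depth and number of replicates were not varied.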
